A study of Hydra vulgaris with 5 samples.

Results

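The hypostome, the cone of tissue around the mouth at the tip of the head of the freshwater polyp Hydra vulgaris, was compared with tissue taken 0 h and 4 h after the animals were cut across. The comparison holds 4 of the 5 single-cell libraries of the series, 2 of hypostome, 1 at 0 h and 1 at 4 h. All came from strain 105, and the labels give the tissue of the 0 h and 4 h libraries as a hypostome in regeneration. The level of the cut, the number of animals and their age are not given in the sources used here, nor is it stated whether the hypostome libraries came from separate animals. The p-values therefore measure only the spread between these libraries, which may be technical. The remaining library, taken at 12 h, was left out by the rule of the comparison. The row MSTRG.22171, which has no informative description, was also left out. It held 5.31% and 7.37% of the counts in the hypostome libraries, 13.1% at 0 h and 35.6% at 4 h.

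Hydra is built of an outer ectodermal and an inner endodermal epithelium, with nerve cells, stinging cells (nematocytes), gland cells and germ cells that arise from interstitial stem cells. The hypostome carries the head organizer, a signalling centre known for Wnt expression, and a dense nerve net. The body column below it is known for dividing cells, for nematoblasts that build the stinging capsules in groups, and for zymogen gland cells that secrete digestive proteases. After the head is cut off, the wound closes and the upper end of the remaining column forms a new hypostome.

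Counts were summed per library over barcodes with at least 200 detected genes. The hypostome libraries kept 110 and 168 such barcodes with 136698 and 230648 counts, against 2332 and 2782 barcodes with 1392466 and 2495372 counts at 0 h and 4 h. These barcodes held 37.7% and 27.7% of all hypostome counts, and 88.3% and 92.0% of the counts at 0 h and 4 h. Barcodes with at least 500 genes supplied 72.8% and 71.6% of the used hypostome counts, but 26.9% and 19.0% at 0 h and 4 h. Barcode depth thus differed between the groups, and repeats within a depth range are given below. Levels are in CPM, counts scaled to a common total of used counts without MSTRG.22171, and have not been divided by gene length.

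The edgeR test covered 7682 genes. At an adjusted p of 0.05 it called 232 (3.02%), 143 of them higher in the hypostome (1.86%) and 89 lower (1.16%). The smallest adjusted p was 0.0207, and 1622 genes had an unadjusted p under 0.05. In all 232 called genes the groups did not overlap in CPM. Such separation is common here: over all genes tested, both hypostome libraries lay above both others in 2180 (28.4%) and below both in 1751 (22.8%). Descriptions that name a protein were attached to 89 of the genes called higher and 67 of those called lower. The 0 h and 4 h libraries are not replicates of each other, so the difference in time enters the spread of the test. The log2 ratio (log2 fold change) given below is hypostome over 0 h and 4 h. With library totals in place of TMM scaling 402 genes were called higher and 145 lower, and without hypostome 1 only 3 genes were called. A lower level in summed counts can come from fewer cells of a type or from less RNA per cell, which cannot be told apart.

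**Figure D1:**
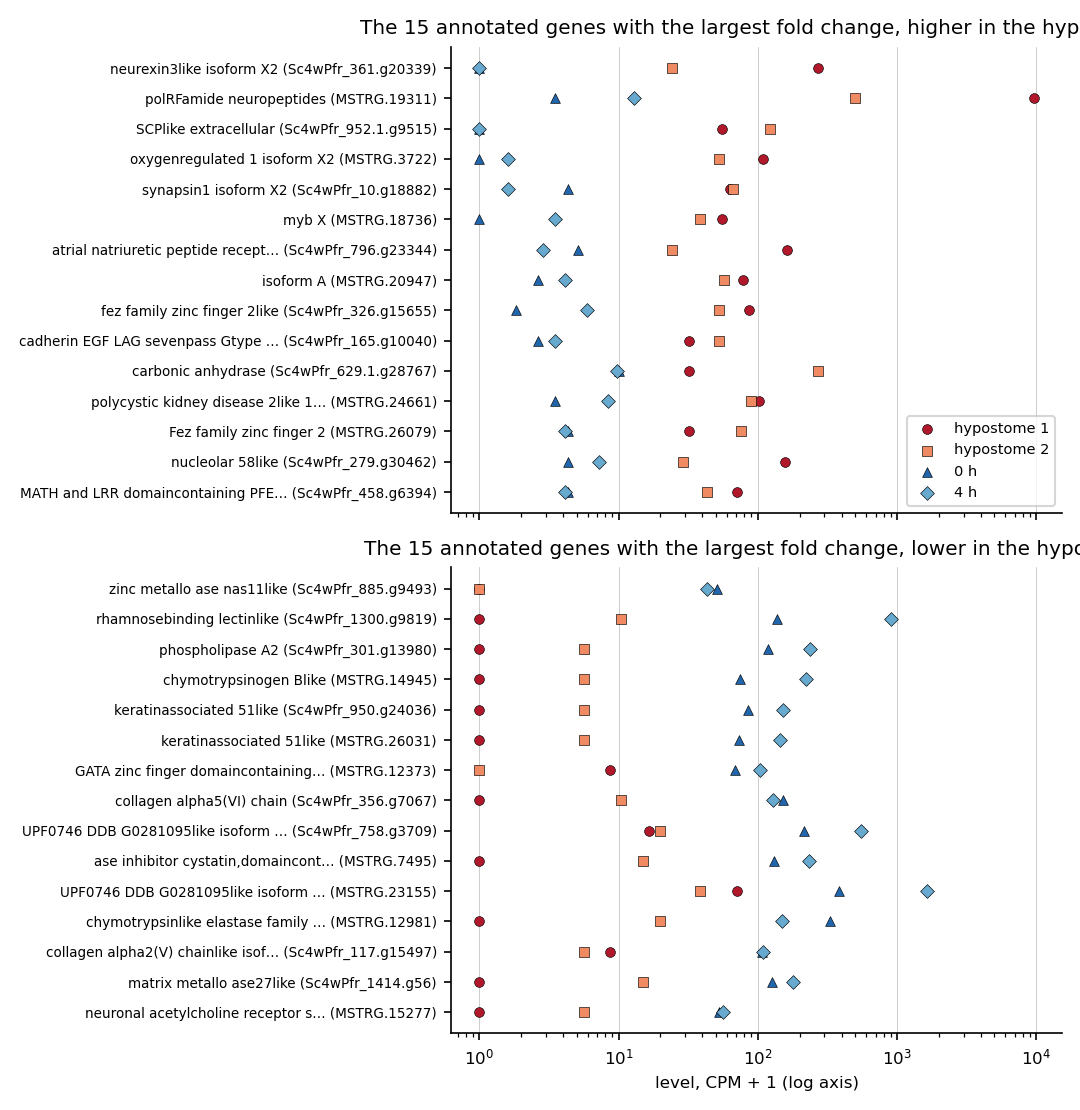
Level of the 15 annotated genes with the largest fold change in each direction, in CPM + 1 on a log axis, with 1 point per library. The hypostome points lie apart from the 0 h and 4 h points in each row, and many genes of the lower panel had 0 counts in hypostome 1.

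Most genes described as KS1, a protein named for its head-specific expression in Hydra, were higher in both hypostome libraries. Of 5 KS1 entries tested, 3 were called higher and 0 lower, against 1.86% and 1.16% over all genes tested. The KS1 median log2 ratio was 2.92, against -0.05 over all genes tested. The KS1-like entry MSTRG.21513 stood at 1337 and 1343 CPM in hypostome tissue against 136 at 0 h and 106 at 4 h. The hypostome libraries agreed closely with each other and lay far above both time points (log2 ratio 3.34 ± 0.28 SE, edgeR adjusted p = 0.0207). The entry Sc4wPfr_661.g19812 stood at 1854, 2036, 300.1 and 176.2 CPM in the same order (log2 ratio 2.92 ± 0.31 SE, edgeR adjusted p = 0.0215). Its counts came from 75 and 109 hypostome barcodes, the widest spread over barcodes of any gene named as higher. The entry MSTRG.21511 had a log2 ratio of 3.22 (edgeR, adjusted p = 0.0215). The 2 further entries were not called: Sc4wPfr_661.g19814 had a log2 ratio of 1.05 (edgeR, adjusted p = 0.192) and Sc4wPfr_952.1.g9550 one of -0.02. These entries are close relatives, so reads may have been split between them in the authors' counting.

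Of 43 members of the neuronal list tested, 2 were called higher and 2 lower, with the median log2 ratio at 0.04. The shares over all genes tested were 1.86% higher and 1.16% lower. The higher members were both neuropeptide precursors. A transcript described as polRFamide neuropeptides (MSTRG.19311), a precursor of the RFamide peptides that act as transmitters in Hydra, stood at 9650 and 501 CPM in hypostome tissue against 2.48 at 0 h and 11.8 at 4 h. Both hypostome libraries lay far above both time points, though they differed from each other many-fold (log2 ratio 9.15 ± 1.5 SE, edgeR adjusted p = 0.0336). Its hypostome counts lay in 14 and 17 barcodes, and 1 barcode held 28.4% of them in hypostome 1 and 71.0% in hypostome 2. The precursor of Hym-355 (Sc4wPfr_635.g14708), a peptide known to promote nerve cell differentiation in Hydra, had 270 and 824 CPM in the hypostome against 15.7 and 54.8 (log2 ratio 3.79 ± 0.74 SE, edgeR adjusted p = 0.0426). In hypostome 1 a single barcode held 88.6% of its counts. It was not called with each gene's largest barcode left out (log2 ratio 3.48, edgeR adjusted p = 0.0586) or with all deposited barcodes (2.81, edgeR adjusted p = 0.0533). In barcodes with at least 500 genes it had 20.7 and 885 CPM against 0 and 135. A second Hym-355 entry (Sc4wPfr_635.g14726) had 0 and 93.6 CPM against 7.44 and 16.8, and was not called (log2 ratio 1.97, edgeR adjusted p = 0.286).

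Some genes outside that list are known from synapses, and single ones of them were called in either direction. A neurexin-3-like gene (Sc4wPfr_361.g20339), a presynaptic adhesion molecule, had 270 and 23.4 CPM in the hypostome and 0 counts at 0 h and 4 h. Against a floor of 3 counts over both time points, it was at least 109-fold higher (edgeR, adjusted p = 0.0393), on 40 hypostome counts in 7 and 2 barcodes. A synapsin-1 gene (Sc4wPfr_10.g18882), which encodes a coat protein of synaptic vesicles, had 61.8 and 65.5 CPM against 3.31 and 0.623 (log2 ratio 4.90 ± 0.67 SE, edgeR adjusted p = 0.0298). The vesicular inhibitory amino acid transporter-like gene Sc4wPfr_201.1.g33263, which loads GABA and glycine into vesicles, had a log2 ratio of 2.51. The high-affinity choline transporter-like gene MSTRG.19938, which takes up choline for acetylcholine synthesis, had one of 2.32, and both had an edgeR adjusted p of 0.0497. Choline acetyltransferase (Sc4wPfr_207.g3893), the enzyme that makes acetylcholine, was called lower, with 23.2 and 9.36 CPM in the hypostome against 93.4 and 154 (log2 ratio -3.21, edgeR adjusted p = 0.0399). Among synaptotagmins, calcium sensors of vesicle release, none was called. Synaptotagmin 7 (MSTRG.15085) had a log2 ratio of -1.89 and a synaptotagmin 11 entry (Sc4wPfr_17.g15825) one of 2.12, the lowest and highest of them tested.

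Other single genes called higher included 2 transcription factors and 3 genes of channels or cilia. Of 3 entries described as Fez family zinc fingers, factors known from forebrain development in vertebrates, 2 were called higher. Sc4wPfr_326.g15655 had 85.0 and 51.5 CPM in the hypostome against 0.827 and 4.98 (log2 ratio 4.17 ± 0.72 SE, edgeR adjusted p = 0.0342), and MSTRG.26079 had a log2 ratio of 3.94. A polycystic kidney disease 2-like 1 gene (MSTRG.24661), a cation channel known from ciliated sensory cells in vertebrates, had 100.4 and 88.9 CPM against 2.48 and 7.47 (log2 ratio 3.98 ± 0.58 SE, edgeR adjusted p = 0.0298). A potassium channel gene (Sc4wPfr_4516.1.g3804) had a log2 ratio of 3.64. An oxygen-regulated protein 1 gene (MSTRG.3722), known from photoreceptor cilia in vertebrates, had 14 and 11 hypostome counts in 2 barcodes and 1 barcode, against 1 count in all at 0 h and 4 h. The ratio was 205 (exact interval 33.6 to 8423, counting error only).

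The 2 neuronal list members called lower were the precursor of PW peptides (Sc4wPfr_59.2.g12471), which are known to counteract Hym-355 in nerve cell differentiation, and a nicotinic acetylcholine receptor subunit alpha-10-like gene (MSTRG.15277). The PW precursor had 30.9 and 79.6 CPM in hypostome tissue against 245.5 at 0 h and 245.4 at 4 h (log2 ratio -2.19 ± 0.44 SE, edgeR adjusted p = 0.0433). The receptor subunit had 1 hypostome count against 150 at 0 h and 4 h, a ratio of 18.3 in favour of the time points (exact interval 3.23 to 727). Among 167 ion channel and transporter genes 5 were called higher and 0 lower, with a median log2 ratio of 0.08. Over all genes tested 1.86% were called higher and 1.16% lower.

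Several tubulins, the subunits of microtubules, were higher in the hypostome. The list of cilium, tubulin and motor genes had 5 of 110 tested members called higher and 0 lower, with a median log2 ratio of 0.50. The shares over all genes tested were 1.86% higher and 1.16% lower. A tubulin alpha-1C entry (Sc4wPfr_1007.g33076) stood at 641 and 978 CPM in hypostome tissue against 75.2 at 0 h and 71.6 at 4 h, with no overlap (log2 ratio 3.34 ± 0.35 SE, edgeR adjusted p = 0.0215). The tubulin beta-4B entries Sc4wPfr_1043.g6751 and Sc4wPfr_1043.g6753 had log2 ratios of 3.48 and 2.15, and the tubulin alpha-1 entry Sc4wPfr_622.g24271 one of 1.97. Tubulins are a family of near-identical copies, so the split of reads between these entries is uncertain. Of 14 tubulin alpha or beta entries tested, 4 were called, with log2 ratios over the 14 from -1.72 to 3.64.

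Genes of the nematocyst, the stinging capsule, stood higher in the hypostome libraries. Of 19 list members tested, 3 were called higher and 0 lower, 18 had a positive log2 ratio, and the median was 1.66. Over all genes tested 1.86% were called higher and 1.16% lower. In 14 of the 19 the groups lay apart with the hypostome above, against 28.4% of all genes. Minicollagen 7 (MSTRG.173), a wall protein of the capsule, stood at 14054 and 10391 CPM in hypostome tissue against 2616 at 0 h and 2906 at 4 h (log2 ratio 1.99 ± 0.28 SE, edgeR adjusted p = 0.0298). The time points were alike and the hypostome libraries lay several-fold above them. The nematoblast-specific entries nb054 (Sc4wPfr_1269.g30703) and nb035-sv3 (MSTRG.19684) had log2 ratios of 2.03 and 2.22. Further entries of minicollagen 7 (Sc4wPfr_1007.g33051) and nb054 (MSTRG.3021) were not called, with log2 ratios of 0.07 and 2.17 (edgeR, adjusted p = 0.967 and 0.114). In hypostome 1 a single barcode held 42.6% of the MSTRG.173 counts, and in hypostome 2 one held 37.1%. In barcodes with at least 500 genes the list's median was 0.68. With all deposited barcodes 0 of the 19 were called, and MSTRG.173 had a log2 ratio of 0.87 (edgeR, adjusted p = 0.176). In the barcodes below 200 genes its value was -0.79.

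Matrix and secreted genes went both ways. Of 81 matrix and adhesion genes tested, 7 were called higher and 2 lower, with a median log2 ratio of 0.39. The shares over all genes tested were 1.86% higher and 1.16% lower. A collagen-related 3 precursor (MSTRG.8087) had 3492 and 1184 CPM in the hypostome against 360 and 357 (log2 ratio 2.54 ± 0.46 SE, edgeR adjusted p = 0.0368). In hypostome 1 a single barcode held 58.2% of its counts. The same identifier also carries entries described as minicollagen 8 and minicollagen 9, so this may be a nematocyst gene and not a matrix gene. A cadherin EGF LAG seven-pass receptor gene (Sc4wPfr_165.g10040), known for planar cell polarity, had a log2 ratio of 4.10. The lower members were collagen alpha-5(VI) (Sc4wPfr_356.g7067), with 2 hypostome counts against 386 and a ratio of 23.5 (exact interval 6.47 to 195), and collagen alpha-2(V)-like (Sc4wPfr_117.g15497), with 2 against 302 and a ratio of 18.4 (5.05 to 153). An SCP-like extracellular gene (Sc4wPfr_952.1.g9515) had 54.1 and 122 CPM in the hypostome and 0 counts at 0 h and 4 h. It was at least 90.3-fold higher against the floor of 3 counts (edgeR, adjusted p = 0.0215), in 6 and 13 barcodes.

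**Figure D2:**
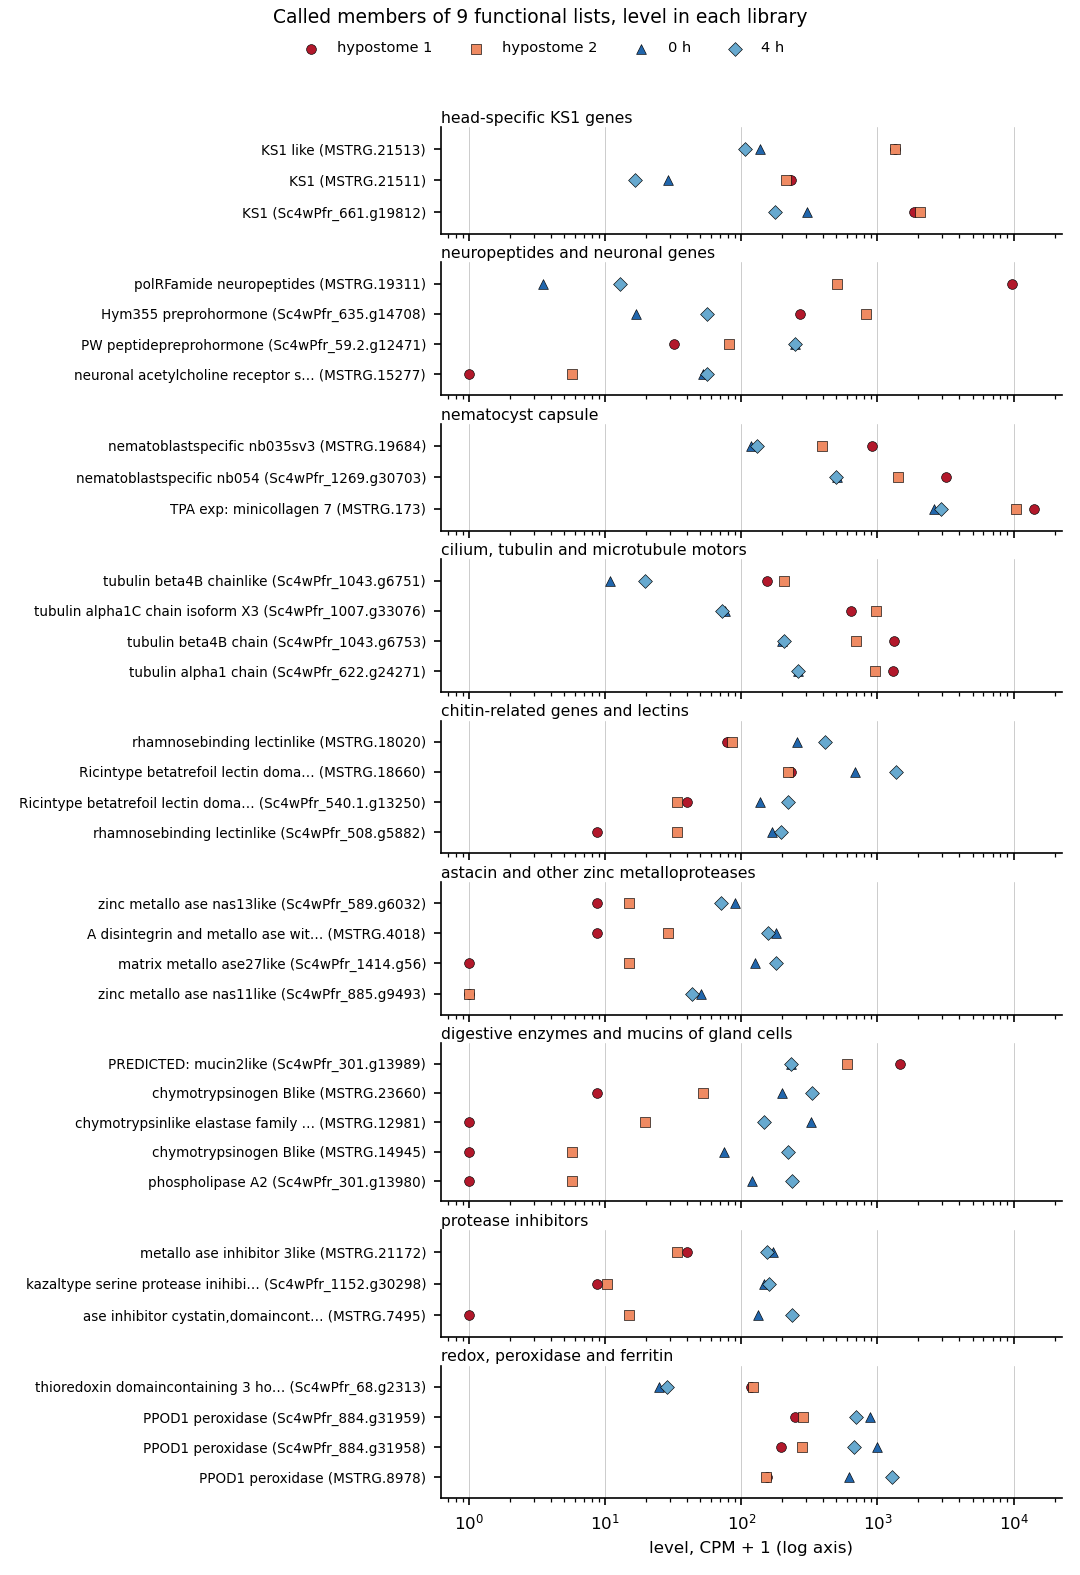
Level of called members of 9 functional lists, up to 4 in each direction, in CPM + 1 on a log axis with 1 point per library. KS1, nematocyst and tubulin members lie to the right in the hypostome, and lectin, metalloprotease and inhibitor members lie to the left.

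Lectins and chitin-related genes had the largest share of members called lower. Of 24 tested, 9 were called lower and 0 higher, with -1.70 as the median log2 ratio. The shares over all genes tested were 1.16% lower and 1.86% higher. Rhamnose-binding lectin-like genes, a family of secreted carbohydrate-binding proteins, made up 4 of the 9 and ricin-type lectin genes 3. The rhamnose-binding lectin-like gene Sc4wPfr_1300.g9819 stood at 0 and 9.36 CPM in hypostome tissue against 136 at 0 h and 897 at 4 h. It had 2 hypostome counts against 1605, a ratio of 97.8 in favour of the time points (exact interval 27.0 to 808, edgeR adjusted p = 0.0433). The ricin-type lectin gene MSTRG.18660 had 232 and 220 CPM in the hypostome against 688 and 1364 (log2 ratio -2.35 ± 0.43 SE, edgeR adjusted p = 0.0368). Its hypostome counts came from 22 and 28 barcodes. With all deposited barcodes the list's median was -0.30, with 2 of 35 members called lower and 1 higher. The list does not hold the entries described as macrophage mannose receptor 1-like, some of which were called higher with all barcodes. Of these, Sc4wPfr_118.g25038 was at least 71.4-fold higher, against 0 counts at 0 h and 4 h (edgeR, adjusted p = 0.0037). Sc4wPfr_118.g25037 and Sc4wPfr_118.g25080 had log2 ratios of 5.97 and 4.37 (both edgeR adjusted p = 0.0128).

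PPOD1 peroxidases, known as components of the cuticle that covers the ectoderm of Hydra, were lower as well. Of 6 entries tested, 3 were called lower, and the log2 ratios of all 6 were negative, -1.69 being the smallest in size. The entry MSTRG.8978 stood at 155 and 150 CPM in hypostome tissue against 613 at 0 h and 1283 at 4 h, so that each time point lay several-fold above both hypostome libraries (log2 ratio -2.81 ± 0.46 SE, edgeR adjusted p = 0.0336). Those of Sc4wPfr_884.g31958 and Sc4wPfr_884.g31959 were -1.92 and -1.69. With all deposited barcodes these 3 log2 ratios were -1.53, -0.63 and -0.42, and none was called (edgeR, adjusted p from 0.0975 to 0.465).

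Some proteases and protease inhibitors were called lower in the hypostome, while the metalloprotease list as a whole was centred near all genes. Of 69 zinc metalloproteases tested 6 were called lower and 0 higher, 32 had a positive log2 ratio, and the median was -0.08. Over all genes tested 1.16% were called lower and 1.86% higher. An astacin-type nas-11-like gene (Sc4wPfr_885.g9493) had 49.6 and 42.3 CPM at 0 h and 4 h and 0 counts in the hypostome. Against a floor of 3 counts over both hypostome libraries, it was at least 5.20-fold lower (edgeR, adjusted p = 0.0396). A matrix metalloproteinase-27-like gene (Sc4wPfr_1414.g56), of the family that degrades extracellular matrix, had 3 hypostome counts against 438, a ratio of 17.8 in favour of the time points (exact interval 6.05 to 86.6). The ADAMTS-like gene MSTRG.4018, a disintegrin and metalloproteinase with thrombospondin motifs, had 7.73 and 28.1 CPM in the hypostome against 179 and 157 (log2 ratio -3.18 ± 0.49 SE, edgeR adjusted p = 0.0325). Of 32 protease inhibitors 3 were called lower and 0 higher, with a median of -0.69. They were a Kazal-type serine protease inhibitor (Sc4wPfr_1152.g30298), a cystatin-domain gene (MSTRG.7495) and a metalloproteinase inhibitor 3-like gene (MSTRG.21172), the last at 38.6 and 32.8 CPM against 171 and 153.

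A few digestive enzymes of gland cells were called lower, and a mucin was called higher. Of 39 members of the gland list tested, 4 were called lower and 1 higher, and 15 had a positive log2 ratio, with a median of -0.38. The shares over all genes tested were 1.16% lower and 1.86% higher. A chymotrypsinogen B-like gene (MSTRG.14945), a protease precursor of zymogen gland cells, had 1 hypostome count against 443, a ratio of 54.0 in favour of the time points (exact interval 9.64 to 2137). A phospholipase A2 gene (Sc4wPfr_301.g13980) had 1 against 520, a ratio of 63.4 (11.3 to 2508). The elastase family member 3B-like gene MSTRG.12981 had 0 and 18.7 CPM in hypostome tissue against 327 at 0 h and 147 at 4 h (log2 ratio -4.44 ± 0.74 SE, edgeR adjusted p = 0.0336). The chymotrypsinogen B-like gene MSTRG.23660 had 7.73 and 51.5 CPM against 198 and 328 (edgeR, adjusted p = 0.0451). The mucin-2-like entry Sc4wPfr_301.g13989, of a family that forms mucus, had 1460 and 594 CPM in the hypostome against 229 and 232 (log2 ratio 1.98 ± 0.41 SE, edgeR adjusted p = 0.0463). In hypostome 1 a single barcode held 51.9% of the counts of this mucin. With all deposited barcodes it had 656 and 203 CPM against 206 and 220 and was not called (edgeR, adjusted p = 0.334). A more abundant chymotrypsinogen B-like gene (Sc4wPfr_41.g30759) was not called, with 371 and 3482 CPM in the hypostome against 3490 and 1945 (edgeR, adjusted p = 0.76). The 2 hypostome libraries differed in gland cell genes as a whole: summed gland cell markers stood at 3593 and 9034 CPM, on either side of 8534 at 0 h and 6288 at 4 h.

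Among the remaining genes with the largest decreases, keratin-associated 5-1-like entries and UPF0746 entries, families of unknown role in Hydra, were called repeatedly. Of 10 keratin-associated entries tested 4 were called lower, and of 2 UPF0746 entries both were. The UPF0746 entry MSTRG.23155 had 69.5 and 37.45 CPM in hypostome tissue against 380 at 0 h and 1625 at 4 h (log2 ratio -4.49 ± 0.80 SE, edgeR adjusted p = 0.0364). The 4 h library was the highest for both entries. A GATA zinc finger domain gene (MSTRG.12373) had 1 hypostome count against 246, a ratio of 29.98 (exact interval 5.33 to 1189).

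Cytoplasmic housekeeping groups gave few calls. Of 121 ribosomal protein genes 2 were called lower and 0 higher, yet 8 had a positive log2 ratio and the median was -0.49. Over all genes tested 1.16% were called lower and 1.86% higher. Ribosomal protein entries held 13.7% and 14.8% of hypostome counts and 17.6% and 17.7% at 0 h and 4 h. With library totals in place of TMM scaling their median was -0.31, while that of all genes moved from -0.05 to 0.11. Translation factors (71 tested), nuclear-encoded respiration genes (62), proteasome and ubiquitin genes (203), apoptosis genes (38) and glycolysis genes (24) had 0 calls, with medians between -0.38 and -0.05. Elongation factor 1-alpha (Sc4wPfr_173.2.g32997) had 7069 and 8079 CPM in the hypostome against 8540 and 6424, overlapping ranges. Among stress genes, a heat shock Hsp-like gene (Sc4wPfr_519.g17979) was called lower, the only call among 62 tested. It had a log2 ratio of -1.83 (edgeR, adjusted p = 0.0368) but 0.21 with all deposited barcodes.

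The Wnt pathway list, of interest for the head organizer, had no call among barcodes with at least 200 genes. Of 19 Wnt pathway genes tested 0 were called in either direction, with a median log2 ratio of 0.55. A TCF entry (MSTRG.6358), the nuclear partner of beta-catenin, had 301 and 257 CPM in the hypostome against 109 and 95.9 (log2 ratio 1.31, edgeR adjusted p = 0.0554). The dickkopf-like gene Dlp2 (Sc4wPfr_134.g20117), of a family of secreted Wnt antagonists expressed in gland cells, had 30.9 and 197 CPM in the hypostome against 379 and 857 (log2 ratio -2.50, edgeR adjusted p = 0.107). In hypostome 2 a single barcode held 76.2% of its counts. A second Dlp2 entry (MSTRG.3546) had 7.73 and 328 CPM against 91.8 and 139, with a log2 ratio of 0.51 (edgeR, adjusted p = 0.805). In the transcription factor list 0 of 69 were called higher and 1 lower. That list does not hold the Fez entries above or the gene described as myb X (MSTRG.18736), which was also called higher (log2 ratio 4.69, edgeR adjusted p = 0.0372) on 7 and 8 hypostome counts. A nanos-like gene (MSTRG.5626), a regulator of germline and stem cells, was called higher, with 124 and 46.8 CPM against 10.75 and 7.47 (log2 ratio 2.99 ± 0.56 SE, edgeR adjusted p = 0.0394). Other stem and germ cell markers were not called. The vasa entries had log2 ratios of -1.34 and -2.14, the Piwi 1 entries from -0.18 to 0.69, and proliferating cell nuclear antigen -0.15. Of 83 stem cell and cell division genes tested 2 were called higher and 0 lower, with a median of 0.09. The share called higher is near the 1.86% over all genes tested, of which 1.16% were called lower.

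**Figure D3:**
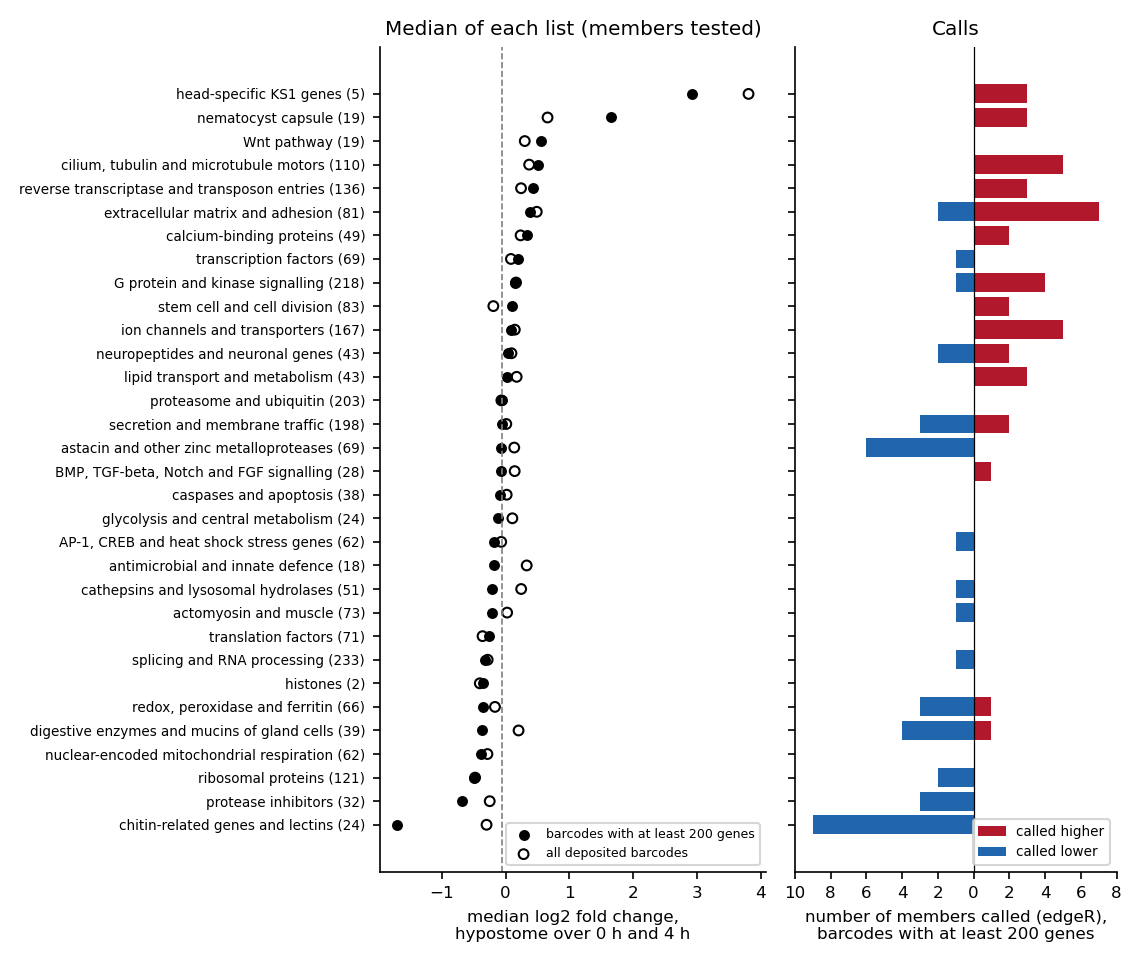
Left, median log2 ratio of the tested members of each of 32 lists, with filled points for barcodes with at least 200 genes, open points for all deposited barcodes and a dashed line at the median of all genes (-0.05). Right, number of members called higher and lower. KS1 and nematocyst genes have the highest medians and lectins the lowest, and the lectin and nematocyst medians lie nearer 0 with all barcodes.

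The comparison was repeated with all deposited barcodes, which adds the barcodes below 200 genes, with 62.3% and 72.3% of the hypostome counts. Of 9414 genes tested with edgeR 186 were called (1.98%), 144 higher (1.53%) and 42 lower (0.446%). Of these, 75 were shared with the 232 calls of the first comparison, 32.3% of those and 40.3% of the 186. Of the 232, 228 could be tested with all barcodes and 223 had the same direction. The barcodes added carried epithelial transcripts. Summed ectodermal markers, which include KS1 and PPOD1, rose from 4419 and 4854 to 11336 and 10297 CPM in the hypostome libraries, and stayed between 3881 and 4030 at 0 h and 4 h. KS1 supplied most of the hypostome sums. Its entries held 0.366% and 0.383% of used hypostome counts and 0.976% and 0.810% of all hypostome counts. At 0 h and 4 h they held 0.064% and 0.039% of all counts. The PPOD1 entries called lower above kept negative log2 ratios with all barcodes.

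In this repeat 4 of 6 KS1 entries were called higher and 0 lower. Sc4wPfr_661.g19812 stood at 5134 and 4282 CPM in hypostome tissue against 315.5 at 0 h and 174.9 at 4 h (log2 ratio 4.26, edgeR adjusted p = 0.0016). Sc4wPfr_661.g19814, not called among the deeper barcodes, stood at 1037 and 967 against 138 and 59.3 (log2 ratio 3.36, edgeR adjusted p = 0.0082). The SCP-like gene Sc4wPfr_952.1.g9515 reached 277 and 389 CPM, with 352 hypostome counts against 0, at least 364-fold higher. Genes too rare to be tested among the deeper barcodes included a further polRFamide entry (Sc4wPfr_569.1.g4046), with 78.3 and 71.4 CPM in the hypostome and 0 counts at 0 h and 4 h, at least 75.5-fold higher. An entry described as Wnt2b (Sc4wPfr_1214.g29750), a secreted Wnt ligand, had 42.4 and 17.5 CPM against 0.735 and 1.74 (log2 ratio 4.24, edgeR adjusted p = 0.0299) and was likewise too rare there. Among the deeper barcodes it had 54.1 CPM in hypostome 1 and 0 in hypostome 2. Of 18 Wnt pathway genes tested with all barcodes, it was the 1 called higher, 0 were called lower, and the median was 0.30. In the transcription factor list 2 of 92 were called higher and 1 lower with all barcodes. The higher ones were a nuclear receptor 2F1B-like gene (Sc4wPfr_1045.g32649), with 55.5 and 61.2 CPM in the hypostome, and an aristaless-related homeobox-like gene (Sc4wPfr_654.g18227), with 22.8 and 14.6 CPM. Both had 0 counts at 0 h and 4 h and were at least 61.1-fold and 17.6-fold higher. The difference between the fits was not tested for any gene.

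Secreted proteases, mucins and inhibitors also appeared in the repeat. Of 47 gland list members 6 were called higher and 5 lower, and of 83 metalloproteases 4 were called higher and 1 lower. Over all genes in this repeat 1.53% were called higher and 0.446% lower. Mucin-2 (MSTRG.13599) had 418 and 347 CPM in the hypostome against 64.0 and 27.3 (log2 ratio 3.07, edgeR adjusted p = 0.0109). The astacin-type nas-15 genes Sc4wPfr_212.1.g3812 and Sc4wPfr_212.1.g3837 had log2 ratios of 3.09 and 3.04. Of 34 protease inhibitors 4 were called higher, including 3 antistasin entries, and 2 lower. The lower ones were the metalloproteinase inhibitor 3-like gene MSTRG.21172 (log2 ratio -1.37, edgeR adjusted p = 0.049) and the Kazal-type gene Sc4wPfr_1152.g30298 (log2 ratio -2.20, edgeR adjusted p = 0.0442). Antistasin Sc4wPfr_227.g25773, a serine protease inhibitor, stood at 3109 and 5244 CPM in the hypostome against 1187 and 1178 (log2 ratio 1.82, edgeR adjusted p = 0.0314), but its value was -0.34 among barcodes with at least 200 genes. The epitheliopeptide Hym-301 (Sc4wPfr_868.g27221), known for a role in tentacle formation, had 78.3 and 77.3 CPM against 22.8 and 11.04 (log2 ratio 2.22). Lower genes in both comparisons included the chymotrypsinogen B-like genes MSTRG.14945 and MSTRG.23660, the elastase-like gene MSTRG.12981 and phospholipase A2, with log2 ratios of -6.18, -3.88, -3.12 and -4.95 here.

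**Figure D4:**
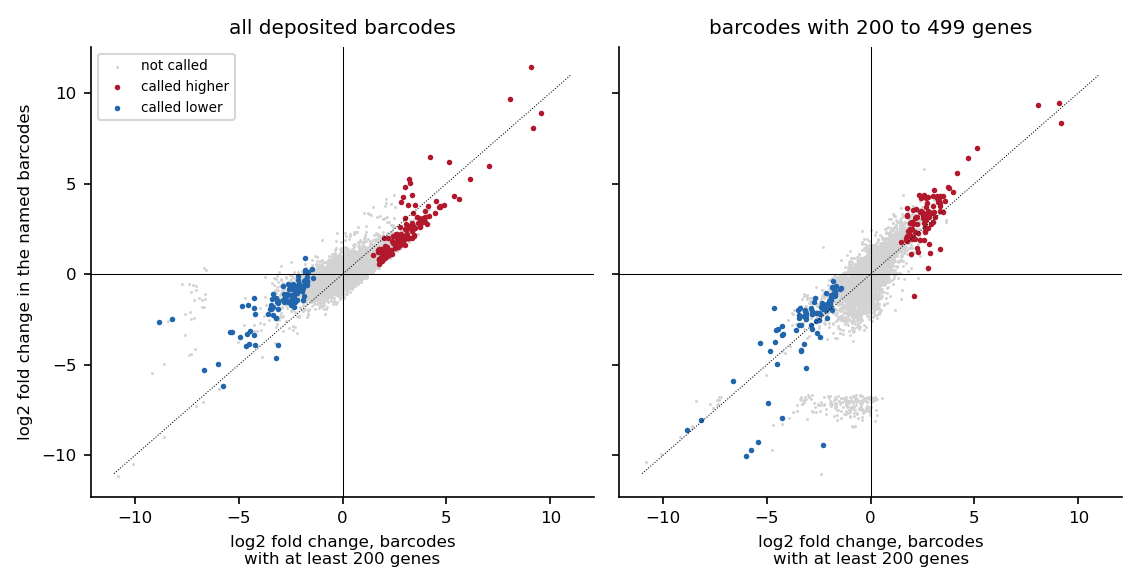
Log2 fold change (hypostome over 0 h and 4 h) of each gene in all deposited barcodes (left) and in barcodes with at least 200 but fewer than 500 genes (right), against that in barcodes with at least 200 genes. Coloured points are the 232 calls of the first comparison and the dotted line marks equal values. With all barcodes 207 of the 228 coloured points lie between the dotted line and 0.

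Because the used hypostome barcodes were deeper, the comparison was also made within barcodes that had at least 200 but fewer than 500 detected genes. There 308 of 5029 genes were called with edgeR, 216 higher and 92 lower, and 118 were shared with the 232 (50.9% of the 232 and 38.3% of the 308). Of the 182 first calls that could be tested, 181 kept their direction. In this depth range KS1-like MSTRG.21513 had a log2 ratio of 3.93, polRFamide one of 8.31, minicollagen 7 one of 2.48 and tubulin alpha-1C one of 4.33. The median of all genes there was -0.30. Among genes called lower above, some kept their call and others did not. Ricin-type lectin MSTRG.18660 had -1.88 (edgeR, adjusted p = 0.024). PPOD1 Sc4wPfr_884.g31958, Sc4wPfr_884.g31959 and the PW precursor had -1.40, -1.03 and -1.76 (edgeR, adjusted p from 0.0646 to 0.147). In barcodes with at least 500 genes 0 of 3651 genes were called, 516 had an unadjusted p under 0.05, and 160 of 161 first calls kept their direction. With each gene's largest barcode left out of every library, 295 of 6414 genes were called, and 207 of 207 first calls that could be tested kept their direction. Each of these repeats uses part of the counts of the first comparison, so a kept direction is not independent of it. Of the 143 genes called higher, 72 had over 25% of their counts in 1 barcode in both hypostome libraries, and 9 had over 50%. Such genes rest on few barcodes.

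Marker genes of other cell types moved with the groups and with barcode depth. In barcodes with at least 200 genes, 22 nematocyte lineage markers summed to 24947 and 15011 CPM in the hypostome libraries against 4498 and 4925 at 0 h and 4 h, with 18 to 21 of them detected. In barcodes with at least 500 genes the sums were 26682 and 16460 against 10660 and 11593, and below 200 genes 1197 and 894 against 1545 and 1319. The hypostome was therefore above the time points in the deeper barcodes and below them in the shallow ones. The 72 neuron markers, of which 34 to 56 were detected per library, summed to 11249 and 3290.5 CPM against 711 and 770, and the hypostome was above in each depth range. This sum rests largely on peptide precursors. The polRFamide entry MSTRG.19311 alone supplied 9650 CPM in hypostome 1, and without it the sums were 1599 and 2790 against 708 and 758. Without all 9 RFamide, Hym-355 and LWamide precursors they were 966 and 711 against 604 and 572. Endodermal markers summed to 12578 and 13714 CPM in the hypostome against 19074 and 17545 in barcodes with at least 200 genes. In barcodes with at least 500 genes the sums were 10038 and 11798 against 9673 and 8656. Below 200 genes they were 26992 and 26210 against 24881 and 20623, and with all barcodes 20906 and 22318 against 19715 and 17751. The hypostome was thus below the time points in the first set only. The part of these cell types in the gene results was not tested, beyond the values within a depth range given above.

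**Figure D5:**
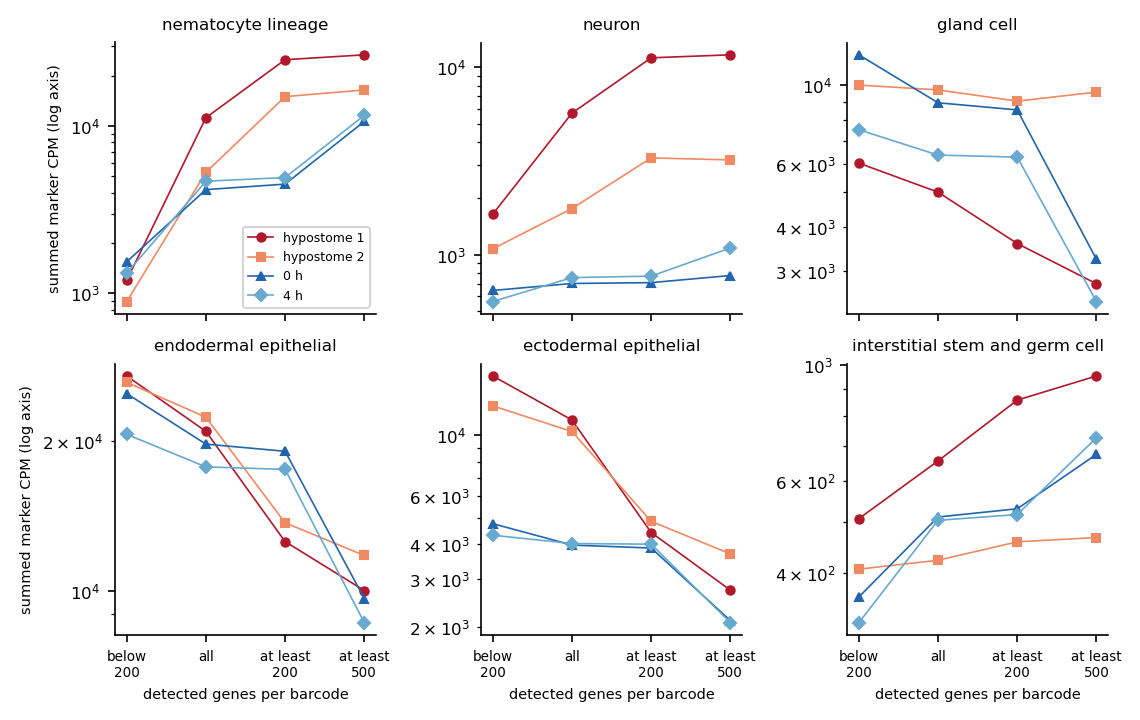
Summed CPM of marker genes of 6 cell classes on a log axis, in 4 libraries, for barcodes below 200 detected genes, all barcodes, and barcodes with at least 200 or 500. Neuron and ectodermal markers are higher in the hypostome libraries throughout, the latter by the widest margin below 200 genes, while nematocyte markers are higher there in the deeper barcodes and lower below 200 genes. KS1 supplies most of the ectodermal sums in the hypostome libraries. The tested PPOD1 entries, part of the same sums, were lower in the hypostome in barcodes with at least 200 genes.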

How the data were processed

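The authors deposited whole-number counts per gene entry and cell barcode for droplet libraries of transcript 3' ends (Bio-Rad SureCell, Pronase E dissociation, per the labels). Kallisto 0.46.1 is named in the submitters' processing notes, with no role. The genome build, the choice of barcodes and whether counts are molecules or reads are not given in the sources used here. Mitochondrial genes are absent, per the names of the deposited tables. The tables hold 46156 entries under 42988 identifiers, kept apart, and 0 identifiers matched the RefSeq gene table at hand, so names are the tables' descriptions and no coordinates or sequences are given. Stranded counting is not stated, so overlapping genes may share counts.

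Counts were summed per library over barcodes with at least 200 genes (129433 to 1605812 counts without MSTRG.22171) and tested with edgeR 4.0.16 in R 4.3.3: quasi-likelihood test, TMM, filterByExpr, Benjamini-Hochberg adjustment at 0.05, two-sided, 2 residual degrees of freedom. The SE was derived from the log2 ratio and its F statistic, and fitted fold changes are shrunk by a prior count. Ratios from 3 counts or fewer use pooled counts with exact conditional binomial intervals (95%), and a group at 0 was set to 3 counts. Intervals and floors cover counting error only. No doublets were removed. Columns carry no barcode sequences, and 0 count profiles were shared between libraries. The script was tested on simulated data.

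The members, 32 functional lists and 6 marker lists were chosen from descriptions with earlier results of these data known, so counts over a list are descriptions. Named genes are annotated. They include the 15 largest changes each way among genes called, apart between groups and at a mean of 20 CPM or more. Without that CPM limit, they also include up to 4 called members per list and direction, up to 2 abundant members of lists with no call, and all tested KS1 entries. Choline acetyltransferase, synaptotagmins and the abundant chymotrypsinogen entry were named after their values were seen. The same rule was applied to the fit with all barcodes. Antistasin was dropped from the ectodermal markers as too broad, and other broad names were narrowed by description. Alternatives (17 fixed, 4 added after seeing the data) include DESeq2 1.42.0 and limma 3.58.1.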

Additional observations from a re-analysis of the deposited data

How the results depend on the processing

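The number of genes called depended on barcodes, scaling and libraries. Against 232 genes in the comparison as reported, edgeR called 0 of 3651 in barcodes with at least 500 genes, 134 in barcodes below 200 genes, 48 after thinning each library to 129433 counts, and 0 with the 12 h library added. It called 547 with library totals in place of TMM, 974 with no gene filter and 812 with 1 term per time point. With library totals, all barcodes gave 402 and barcodes with at least 500 genes gave 3. DESeq2 called 263 and limma 159. Leaving out 1 library gave between 3 and 377 genes: 3 without hypostome 1, 220 without hypostome 2, 377 without 0 h and 346 without 4 h, each on 1 residual degree of freedom, where the lone library of a group is assumed to vary like the others. The share of calls that were higher was 61.6% as reported, 73.5% with library totals and 26.3% with no filter. The cause of these changes was not tested. Of the 232 genes, those that could be tested kept their direction in 109 of 122 below 200 genes, 181 of 188 with the 12 h library and 223 of 228 with all barcodes. The fits with the 12 h library and with all barcodes also hold the counts of the first comparison.

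Of 1679 values of 90 named called genes under the alternatives, 20 had the opposite sign. Below 200 genes they were collagen-related 3 (-0.57), nb054 (-0.22), minicollagen 7 (-0.79), lysosome-associated membrane glycoprotein 1 (0.25), adenylyl cyclase-associated 1 (0.57) and Hsp-like (0.076). With all barcodes they were the last 3 (0.30, 0.095, 0.21; with library totals 0.31, 0.10, 0.23) and 40S ribosomal S9 (0.11; 0.12). With the 12 h library they were the endonuclease entry Sc4wPfr_339.g696 (-2.60) and MSTRG.18577 (-0.45), the latter also in barcodes with at least 200 but fewer than 500 genes (-1.19). With at least 500 genes they were chymotrypsinogen B-like MSTRG.23660 (0.26; with library totals 0.16) and, with library totals, choline transporter MSTRG.19938 (-0.049). No paired analysis was possible because 0 h and 4 h have 1 library each and share only 1 replicate number with the hypostome. Depth limits low genes: 3 counts over both hypostome libraries equal 8.74 CPM.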

Other observations

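Some gene families outside the lists were called repeatedly. They were chosen after their values were seen, and ratios are hypostome over 0 h and 4 h. Carbonic anhydrases, which interconvert carbon dioxide and bicarbonate, had 3 of 6 tested entries called higher in the hypostome and 0 lower. Sc4wPfr_850.1.g5697 had 162 and 314 CPM in the hypostome against 15.7 and 26.8 (log2 ratio 3.35, edgeR adjusted p = 0.0298). Entries described as interferon-induced very large GTPase had 2 of 3 called higher. Four-domain proteases inhibitor entries had 2 of 5 called lower, and myophilin-like entries, of the calponin family, 2 of 6. In the all-barcode fit a gene described as epididymal secretory E1 (Sc4wPfr_1152.g30297), of a sterol-binding family, had 0 hypostome counts against 546, at least 58.6-fold lower.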
